A study of Homo sapiens with 6 samples.

Results

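Integrins and laminins are the receptor and the ligand side of how a cell holds on to its matrix, and 37 genes that encode their chains were followed here, out of 58336 genes in the tables. They were taken by name, 18 integrin alpha chains, 8 integrin beta chains, 5 laminin alpha chains, 4 laminin beta chains and 2 laminin gamma chains. The rule that lists them uses no measured value, but the members were chosen with earlier results of these data known. The cells were clones of KGN, an established human line derived from a granulosa cell tumour of the ovary. KGN has the C134W change on 1 allele of FOXL2, which encodes a forkhead protein that regulates transcription in granulosa cells. Clones 44a and 4.72 are FOXL2 WT/WT, which means that C134W had been reverted with CRISPR/Cas9, and clones 3.11 and 44b are FOXL2 WT/C134W, with no editing recorded in their labels. A further library per genotype, 4.72-44a and 3.11-44b, has a title that joins the names of the other 2, and it may be a mix of them. All 6 came from KGN cells grown in the same serum-containing medium and lysed 30 h after transfection, of what is not stated. Each line is a clone, so clone, editing and genotype cannot be told apart, and the p-values measure only the spread between these 4 clones, which may in part be technical. The question was which chains differ between cells with and without C134W.

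An integrin is a dimer of 1 alpha and 1 beta chain that spans the membrane and ties matrix proteins outside to actin inside. The alpha chain largely sets the ligand: alpha 5 and alpha V read the RGD motif of fibronectin and related proteins, alpha 3, 6 and 7 bind laminins, and alpha 1, 2, 10 and 11 bind collagens. A laminin is a trimer of 1 alpha, 1 beta and 1 gamma chain that assembles into the sheet of a basement membrane, and in the ovarian follicle such a membrane separates granulosa cells from the theca.

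Library totals ran from 35332727 to 46613068 expected counts, and 3 counts equal between 0.0663 and 0.0781 CPM (counts scaled by TMM-adjusted library size). FOXL2 itself stood at 7.38, 4.87 and 4.34 CPM in the WT/WT libraries 44a, 4.72 and 4.72-44a. It stood at 9.26, 10.1 and 6.32 CPM in the WT/C134W libraries 3.11, 44b and 3.11-44b. The 4 single clones did not overlap and the 6 libraries did. The log2 fold change was 0.67 ± 0.34 (SE, adjusted p = 0.726 in edgeR), and a gene total does not show which allele was read. Of 20 granulosa cell markers 10 reached a mean of 2 TPM over the 4 clones (a level per transcript length, scaled to a fixed total per library). FSHR, AMHR2, GATA4 and WT1, defining genes of this cell type, were listed at 0 in all 6 libraries, while AMH, NR5A1 and INHBA were measured. Of 17 leukocyte markers 8 had no count in any library, CD3E, LYZ and SPI1 among them, and their summed level was 111 to 119 TPM in WT/WT and 113 to 130 TPM in WT/C134W, most of it CD68. Platelet and endothelial lists summed to at most 1.47 and 5.50 TPM. Epithelial markers summed to 1336 to 1592 TPM in WT/WT and 507 to 1560 TPM in WT/C134W. KRT18 made up most of this, with 1027, 1457 and 1276 TPM in 44a, 4.72 and 4.72-44a. In 3.11, 44b and 3.11-44b it had 379, 1343 and 1081 TPM. The fibroblast and stromal list summed to 23994 to 25794 TPM in WT/WT against 10784 to 12758 TPM in WT/C134W. Of its 13 members 12 had a negative fold change, beside 49.4% of all genes tested. COL1A1, TAGLN, COL1A2 and ACTA2 made up 89.5% to 93.7% of that sum, and PDGFRA was the member with a positive fold change (0.41). That difference moves with genotype beside the integrin and laminin values given here, and its part in them was not tested. In bulk RNA, fewer cells of a type and less RNA per cell cannot be told apart.

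Of the 37 chains 21 had a mean of at least 2 TPM over the 4 clones, and ITGA2 at 1.97 TPM and LAMA2 at 1.62 TPM stood just under that level. The beta 1 chain ITGB1, the common partner of most alpha chains, had the highest mean level, from 1209 to 1723 TPM over the 6 libraries. It was followed by ITGB5, ITGA5 and ITGA3, whose ranges overlapped, and in 4.72 ITGA5 at 1365 TPM exceeded ITGB1 at 1284 TPM. Levels between 156 and 359 TPM were found for LAMC1, LAMB1 and LAMB2 in WT/WT, together with ITGAV. ITGA8, ITGAD, ITGAM and LAMB4 had no count in any library, and these 4 are among the 11 chains that did not pass the low-count filter. The other 7 of the 11 (ITGA2B, ITGA9, ITGAL, ITGAX, ITGB6, ITGB7 and LAMC3) reached at most 0.71 TPM and 42 counts in any library. The leukocyte chains ITGAL, ITGAM, ITGAX and ITGAD, which pair with ITGB2, and the platelet chain ITGA2B are in that group.

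**Figure D1:**
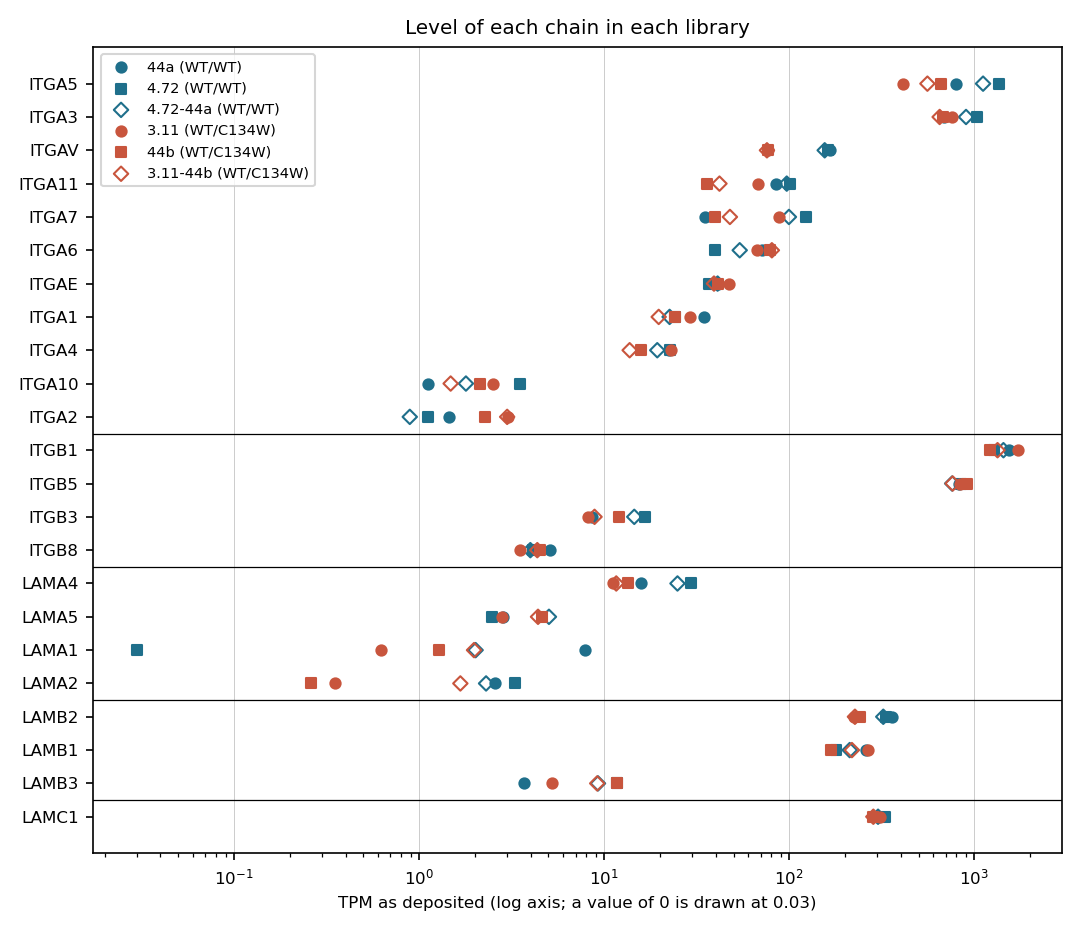
Level of the 21 chains with a mean of at least 2 TPM, and of ITGA2 and LAMA2, in each of the 6 libraries. The x axis is TPM on a log scale, colours give the genotype, filled marks are single clones and open marks the joined libraries. ITGAV shows tight groups, 156 to 166 TPM in WT/WT and 75.8 to 77.1 TPM in WT/C134W, whereas LAMA1 ranges from 0 to 7.83 TPM within WT/WT.

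Among the 26 chains tested between genotypes, 0 had a Benjamini-Hochberg adjusted p under 0.05 with edgeR (quasi-likelihood, 4 single clones), and neither did any other gene (0% of 16416 tested). An unadjusted p under 0.05 (background 7.57% of all genes in either direction) was found for 5 chains with lower values in WT/C134W (background 4.7% of all genes) and 1 with higher values (background 2.88%). In increasing order of p these were ITGAV, LAMA2, LAMB2, ITGA5 and ITGA11, lower, and ITGA2, higher. Other tools gave other counts. DESeq2 called ITGAV, ITGA5, LAMB2 and LAMA2 (1.12% of 24301 genes called, lower 0.827%). Those 24301 include genes that DESeq2 gave no adjusted p and so could not call, ITGAL and LAMC3 among them. Limma voom called 0 chains, edgeR with a replicate block called 0 (0.0305% of all genes), and edgeR without the low-count filter called 6 (2.73% of all genes). With the joined libraries taken as further clones, edgeR called ITGAV, LAMB2 and LAMA2, lower, and ITGA2, higher (3.18% of all genes, 2.36% lower and 0.823% higher), although those libraries may repeat the same clones.

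The sign was negative for 24 of the 26 chains tested, with a median log2 ratio (log2 fold change, the level in WT/C134W divided by that in WT/WT) of -0.48, beside 49.4% of all genes and a median of 0.01. In 12 chains all WT/C134W clones lay below all WT/WT clones (background 19.8%), and in 1, ITGA2, above (background 19.6%). With the joined libraries included, 10 were below (background 14%) and 1 above (background 11.8%). The negative count depends on 1 clone and on scaling: without 44a it was 18 of 27, and with library totals as the only scaling it was 18 of 26, and the median over all genes then stood at 0.23 while that of the chains was -0.25 (29.4% of all genes negative). On the TPM scale 15 of 23 were negative.

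**Figure D2:**
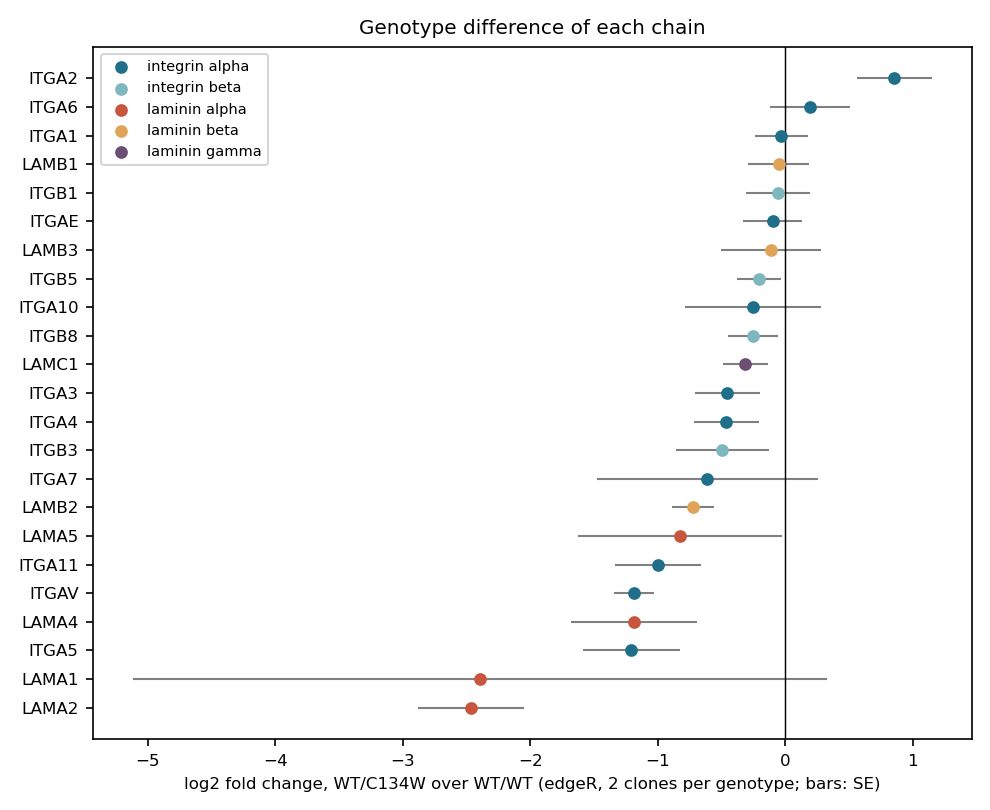
Log2 fold change of each chain with values, negative where WT/C134W is lower, with SE bars from edgeR on 2 clones per genotype, coloured by chain class. ITGAV at -1.18 and LAMB2 at -0.72 have short bars, LAMA1 at -2.39 has an SE of 2.72, and ITGA2 at 0.86 stands at the other end.

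The fibronectin and RGD receptors ITGA5 and ITGAV had lower values in WT/C134W. ITGAV (alpha V, ENSG00000138448, chromosome 2, 186590065 to 186680901, plus strand, GRCh38), which also binds the latent form of TGF-beta, was measured at 498 CPM in 44a, 520 CPM in 4.72 and 546 CPM in 4.72-44a. The WT/C134W libraries 3.11, 44b and 3.11-44b held 218, 228 and 231 CPM. The genotypes did not overlap, and the clones of a genotype were within 1.05-fold of each other. The mean was 509 ± 15.5 CPM against 223 ± 7.03 CPM (SD, n = 2), a 2.28-fold lower mean, with a log2 fold change of -1.18 ± 0.16 (SE) and an adjusted p of 0.48 in edgeR's test. Its fold change ranged from -1.22 to -1.16 when each clone was left out in turn.

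ITGA5 (alpha 5, ENSG00000161638, chromosome 12, 54395261 to 54419460, minus strand), the partner of beta 1 in the main fibronectin receptor, had 2097, 3678 and 2928 CPM in 44a, 4.72 and 4.72-44a. It had 921, 1573 and 1310 CPM in 3.11, 44b and 3.11-44b. No WT/C134W library reached the lowest WT/WT library, but the clones within a genotype were 1.75-fold and 1.71-fold apart. The log2 fold change was -1.21 ± 0.38 (adjusted p = 0.633 in edgeR), and it was -0.75 without 4.72 and -1.65 without 44b.

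The 250 bases before the annotated start are shown for the 3 chains with the smallest p and, for contrast, for ITGA2 with its higher values (RefSeq promoter table, GRCh38.p14, 5′ to 3′ on the gene's strand). This is the proximal promoter, in which the motif letters were searched. Capitals mark letters of a searched motif, and all other bases are in lower case.
ITGAV, chr2:186589806-186590055, plus strand: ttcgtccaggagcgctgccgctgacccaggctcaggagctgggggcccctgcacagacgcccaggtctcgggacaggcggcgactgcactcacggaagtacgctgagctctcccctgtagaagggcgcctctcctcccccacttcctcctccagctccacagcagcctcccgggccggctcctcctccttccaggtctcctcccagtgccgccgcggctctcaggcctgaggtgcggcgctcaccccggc
LAMA2, chr6:128882888-128883137, plus strand: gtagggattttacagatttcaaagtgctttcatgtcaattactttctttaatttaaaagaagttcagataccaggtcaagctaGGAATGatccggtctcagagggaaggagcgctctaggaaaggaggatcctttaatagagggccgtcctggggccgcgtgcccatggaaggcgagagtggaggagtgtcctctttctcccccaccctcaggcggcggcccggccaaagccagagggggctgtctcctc
LAMB2, chr3:49133051-49133300, minus strand: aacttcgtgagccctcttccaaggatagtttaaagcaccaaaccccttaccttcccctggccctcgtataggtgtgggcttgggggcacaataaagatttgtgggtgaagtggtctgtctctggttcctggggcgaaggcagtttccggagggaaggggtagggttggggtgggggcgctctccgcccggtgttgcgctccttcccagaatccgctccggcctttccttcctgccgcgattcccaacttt
ITGA2, chr5:52989102-52989351, plus strand: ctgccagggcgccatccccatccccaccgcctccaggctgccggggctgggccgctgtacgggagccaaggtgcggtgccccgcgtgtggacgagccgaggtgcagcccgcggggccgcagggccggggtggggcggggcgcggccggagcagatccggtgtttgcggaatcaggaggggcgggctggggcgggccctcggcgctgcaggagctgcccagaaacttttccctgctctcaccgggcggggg
The letters searched on both strands were GTAAACA (forkhead), CAGACA (SMAD), TGANTCA (AP-1) and GGAATG (TEAD). Of these 4 windows, that of LAMA2 holds TEAD letters, 167 bases before the start, and the other 3 hold none of the 4 motifs. A second annotated ITGAV start on chromosome 2 has none either.

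RefSeq windows were found for 26 of the 37 chains, 33 windows in all. The forkhead letters occurred in 0 of the 33 windows and in 2.98% of all 35116 windows of that length. SMAD letters occurred in 3 windows (ITGA5, LAMA3 and LAMA4) and in 13.6% of all. AP-1 letters occurred in 2 (LAMA3 and LAMB3) and in 6.57% of all, and TEAD letters in 4 (ITGA10, ITGA5, ITGB1 and LAMA2) and in 11.9% of all. No motif overlapped another. The median GC content was 60% in the chains' windows and 58% in all windows, and it was 76.4% in the ITGA2 window and 53.2% in that of LAMA2. A match is a match of letters and no site, and its absence says only that these letters are not in this window.

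Values of the laminin-binding alpha chains differed in size and sign. ITGA3 (alpha 3, ENSG00000005884, chromosome 17, 50055968 to 50090481, plus strand) had 1956, 2987 and 2452 CPM in 44a, 4.72 and 4.72-44a and 1876, 1721 and 1677 CPM in 3.11, 44b and 3.11-44b. The genotypes did not overlap, yet 44a and 3.11 were close, and the log2 fold change was -0.45 ± 0.26 (adjusted p = 0.757 in edgeR), -0.12 without 4.72 and -0.74 without 44a. ITGA6, which pairs with beta 1 or with the hemidesmosome chain beta 4, had 264, 143 and 186 CPM in the WT/WT libraries, same order, against 213, 253 and 245 CPM. These ranges overlapped, and the fold change of 0.20 ± 0.31 became -0.18 without 4.72.

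ITGA7, the laminin receptor known from muscle, differed more within a genotype than between them. It had 63.2, 284 and 212 CPM in 44a, 4.72 and 4.72-44a and 156, 70.7 and 87.9 CPM in 3.11, 44b and 3.11-44b. Clones were 4.50-fold apart in WT/WT and 2.20-fold apart in WT/C134W, with both joined libraries between their clones. The fold change of -0.61 ± 0.86 became 0.84 without 4.72. Reads of ITGA7 are uncertain, because exons of BLOC1S1 and METTL7B overlap its exons on the opposite strand and the strand setting of the counting is not given in the sources used here. Exons of ITGAV, ITGA5, LAMA2, LAMA4 and ITGB1, among others, also overlap exons of a gene on the opposite strand. Those of ITGB3 overlap another gene on the same strand. Levels of these overlapping genes were not examined. For LAMB2, ITGA2 and ITGA11 no overlap was found.

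Collagen-binding alpha chains had values in both directions. ITGA11, a receptor for fibrillar collagen in mesenchymal cells, had 310, 397 and 360 CPM in 44a, 4.72 and 4.72-44a and 232, 121 and 150 CPM in 3.11, 44b and 3.11-44b. The groups did not overlap and 44b was lowest. Its log2 fold change was -0.99 ± 0.34 (adjusted p = 0.647 in edgeR), -0.61 without 44b and -1.54 without 3.11.

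ITGA2 (alpha 2, ENSG00000164171, chromosome 5, 52989326 to 53094779, plus strand) had 8.10, 6.11 and 5.01 CPM in 44a, 4.72 and 4.72-44a. It had 13.9, 11.7 and 15.2 CPM in 3.11, 44b and 3.11-44b, so that every WT/C134W library lay above every WT/WT library. It is named for these values although its level was under 2 TPM. The log2 fold change was 0.86 ± 0.30 (adjusted p = 0.647 in edgeR), and the promoter shown for it above is the most GC-rich of the 4. ITGA1 lies 30115 bases away on the same strand of chromosome 5. It had 124, 88.7 and 103 CPM in WT/WT against 102, 107 and 93.1 CPM. These overlapped, with a fold change of -0.03 ± 0.20, and ITGA1 reads are uncertain because PELO shares exon sequence with it on the same strand. ITGA10, a collagen receptor of cartilage, had between 3.70 and 10.4 CPM, both in WT/WT, and the WT/C134W libraries lay between 5.00 and 6.16 CPM.

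Of the other alpha chains, ITGA4, which binds VCAM1 and a spliced segment of fibronectin, had 56.9, 56.1 and 51.0 CPM in 44a, 4.72 and 4.72-44a and 50.5, 31.3 and 30.7 CPM in 3.11, 44b and 3.11-44b. The groups did not overlap, but 3.11 came close to the lowest WT/WT library, and the fold change of -0.46 ± 0.25 was -0.16 without 44b. ITGAE, the receptor for E-cadherin on intraepithelial T cells, was between 14.6 and 18.8 CPM in all 6 libraries, where T cell markers CD3E, CD3D and CD2 had no count. Its exons overlap those of HASPIN on the opposite strand.

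The more abundant beta chains showed smaller differences than ITGAV or ITGA5. ITGB1 (beta 1, ENSG00000150093, chromosome 10, 32900319 to 33005792, minus strand) had 3217, 2875 and 3098 CPM in 44a, 4.72 and 4.72-44a and 3455, 2397 and 2652 CPM in 3.11, 44b and 3.11-44b. The groups overlapped, with both the highest and the lowest library in WT/C134W, and the fold change was -0.05 ± 0.25. ITGB5, a partner of alpha V that binds vitronectin, had 879, 948 and 867 CPM against 787, 792 and 792 CPM in the same order. These did not overlap, and the fold change was -0.21 ± 0.17 (adjusted p = 0.858 in edgeR), or 0.02 with library totals as the only scaling. Between WT/WT and WT/C134W the ratio of ITGB5 to ITGAV in TPM was 4.99, 5.28 and 4.89 against 10.8, 11.8 and 10.1, and these ranges did not overlap.

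ITGB3, the other vitronectin-binding partner of alpha V, had 23.8, 46.1 and 39.5 CPM against 19.9, 29.4 and 22.5 CPM in that order of libraries. The ranges overlapped and the fold change was -0.49 ± 0.36. ITGB8, which with alpha V binds latent TGF-beta, had 23.0, 21.7 and 20.4 CPM against 16.8, 20.6 and 20.8 CPM, where the 4 single clones did not overlap and the 6 libraries did. ITGB2, the beta chain of leukocytes, and ITGB4, the beta chain of hemidesmosomes, passed the filter with at most 1.21 CPM in any library, and their fold changes of -1.12 ± 1.16 and -1.28 ± 1.24 had errors about as large as the values. The highest ITGB4 library was 3.11-44b at 0.989 CPM, and with all 6 libraries its fold change was 0.20.

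All 5 laminin alpha chains were tested, and the sign was negative for all 5 (median log2 fold change -1.19), beside 49.4% of all genes. Without 44a it was negative for 2 of 5, with LAMA1 at 10.05, LAMA3 at 1.58 and LAMA5 at 0.23. LAMA2 (ENSG00000196569, chromosome 6, 128883141 to 129516569, plus strand), the chain of muscle and nerve basement membranes, had 12.7, 8.13 and 9.22 CPM in 44a, 4.72 and 4.72-44a. It had 2.12, 1.63 and 2.73 CPM in 3.11, 44b and 3.11-44b. Every WT/C134W library was under the lowest WT/WT library, and the means were 10.4 ± 3.20 and 1.88 ± 0.342 CPM (SD, n = 2), a 5.54-fold lower mean. Its log2 fold change was -2.47 ± 0.42 (adjusted p = 0.48 in edgeR) and ran from -2.76 to -2.12 with each clone left out in turn. LAMA2 stood under 2 TPM and is named for these values.

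LAMA4, the laminin chain typical of vessels and mesenchymal cells, had 45.2, 107 and 82.4 CPM in 44a, 4.72 and 4.72-44a and 24.6, 42.0 and 37.4 CPM in 3.11, 44b and 3.11-44b. The genotypes did not overlap, although 44a was only a little above 44b, and the fold change of -1.19 ± 0.49 (adjusted p = 0.684 in edgeR) was -0.44 without 4.72. LAMA5, the widely expressed chain of adult basement membranes, had 17.1, 5.39 and 9.37 CPM against 2.86, 9.83 and 9.99 CPM, which overlapped. Its reads are uncertain as for ITGA7, because its exons overlap those of ADRM1 on the opposite strand. LAMA1, known from early embryonic basement membranes, had 32.8 CPM in 44a and no count in 4.72, where 3 counts would be 0.0746 CPM, and 10.2 CPM in 4.72-44a. In WT/C134W it had 1.11, 5.15 and 5.72 CPM. The 2 WT/WT clones thus enclosed every other library, and the fold change of -2.39 ± 2.72 became 10.05 without 44a. LAMA3, the chain of epithelial laminins, varied 10.1-fold between the WT/WT clones and 5.23-fold between those of WT/C134W, at no more than 2.50 CPM.

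Among the beta and gamma chains of laminin, LAMB2 was the chain whose genotypes lay furthest apart for their spread. LAMB2 (ENSG00000172037, chromosome 3, 49121114 to 49133118, minus strand) had 498, 490 and 443 CPM in 44a, 4.72 and 4.72-44a and 277, 320 and 283 CPM in 3.11, 44b and 3.11-44b. The groups did not overlap, the means were 494 ± 5.60 and 298 ± 30.4 CPM (SD, n = 2), and the mean was 1.65-fold lower in WT/C134W. Its log2 fold change was -0.72 ± 0.17 (adjusted p = 0.593 in edgeR) and ran from -0.83 to -0.62 with each clone left out. LAMB1 had 459, 398 and 426 CPM against 494, 331 and 376 CPM, which overlapped, with a fold change of -0.05 ± 0.24. Its reads are uncertain as for ITGA7, because its exons overlap those of DLD on the opposite strand. The ratio of LAMB2 to LAMB1 in TPM was 1.38, 1.87 and 1.52 against 0.842, 1.43 and 1.04, so that the clones 44a and 44b overlapped on this ratio.

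LAMC1, the gamma chain of most laminins, had 1078, 1229 and 1173 CPM in 44a, 4.72 and 4.72-44a and 939, 912 and 897 CPM in 3.11, 44b and 3.11-44b. The groups did not overlap, and the fold change was -0.31 ± 0.18 (adjusted p = 0.757 in edgeR). LAMB3, the beta chain of epithelial laminins, was between 10.4 and 22.5 CPM, both in WT/WT, and its fold change was -0.11 ± 0.39.

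The make-up of each chain class was taken as each chain's share of the summed TPM. Among integrin alpha chains, ITGA5 took 40.9%, 46.8% and 44.5% in 44a, 4.72 and 4.72-44a and 26.1%, 40.0% and 36.4% in 3.11, 44b and 3.11-44b, while ITGA3 took 35.4% to 36.0% in WT/WT and 40.8% to 48.1% in WT/C134W. ITGA5 was thus the leading alpha chain in each WT/WT library and ITGA3 in each WT/C134W library, and the ratio of ITGA5 to ITGA3 was 1.15 to 1.32 against 0.541 to 0.983. Summed integrin alpha chains came to 1940, 2913 and 2511 TPM in the reverted clones' libraries and to 1576, 1658 and 1532 TPM in the others. Summed integrin beta chains overlapped, from 2118 to 2570 TPM. ITGB1 made up 56.6% to 67.1% of the beta chains and ITGB5 32.5% to 42.6%, both with overlapping genotypes. Alpha chains that pair with beta 1 summed to 1.23, 2.24 and 1.72 times the ITGB1 level in the reverted clones' libraries and to 0.886, 1.34 and 1.12 times in the others.

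Laminin alpha chains summed to 29.9, 35.3 and 34.9 TPM against 15.2, 20.9 and 20.6 TPM, far under LAMC1 at 284 to 328 TPM. LAMC1 exceeded this sum 8.67-fold to 10.1-fold in WT/WT and 13.6-fold to 20.4-fold in WT/C134W. LAMA4 was the leading alpha chain in every library, with 52.8% to 83.4%. LAMB2 took 57.6% to 63.7% of the beta chains in WT/WT and 45.2% to 57.1% in WT/C134W, and by TPM LAMB1 exceeded LAMB2 in 3.11 alone, whereas by CPM it did so in all 3 WT/C134W libraries. By these levels 12 of 24 known integrin pairs had each chain at 2 TPM or more: beta 1 with alpha 1, 3, 4, 5, 6, 7, 10, 11 or V, and alpha V with beta 3, 5 or 8. Of 8 laminin trimers 6 did so, those of LAMA1, LAMA4 or LAMA5 with LAMB1 or LAMB2 and LAMC1. Without 44a the mean of LAMA1 was 0.633 TPM and 4 trimers did so, and without 3.11 or 44b all 8 reached 2 TPM. RNA of each chain does not show that the protein dimer or trimer is made.

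**Figure D3:**
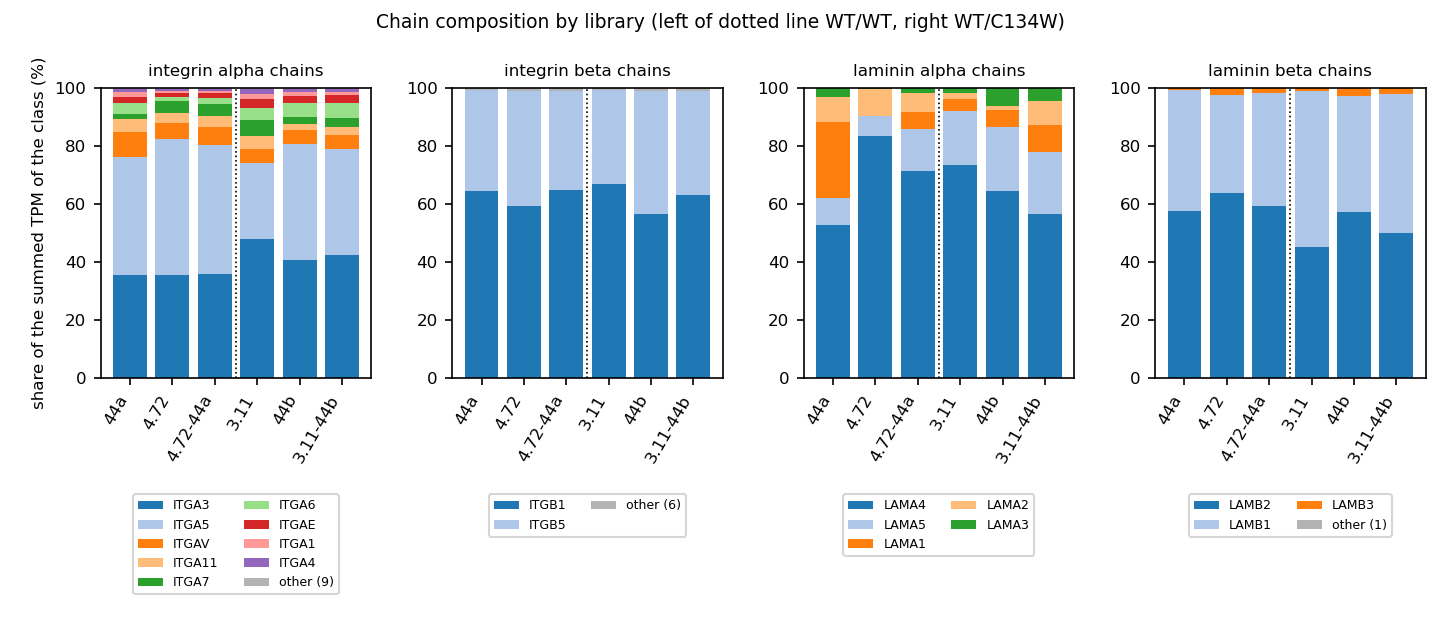
Share of the summed TPM of each chain class by library, in percent, as stacked bars, with WT/WT to the left and WT/C134W to the right of the dotted line. ITGA5 leads the integrin alpha chains in the WT/WT libraries (40.9% to 46.8%) and ITGA3 in the WT/C134W libraries (40.8% to 48.1%), and LAMA4 leads the laminin alpha chains throughout.

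The deposited transcript length, an average over a gene's transcripts weighted by abundance, differed between chains in how much of the gene it covers. For ITGA5 it was 3666 to 3814 bases in the 6 libraries and for LAMB2 2049 to 2140 bases. Both chains were lower in WT/C134W per length and per count, with a smaller difference per length. The WT/C134W mean divided by the WT/WT mean was 0.432 in CPM and 0.498 in TPM for ITGA5. For LAMB2 it was 0.604 in CPM and 0.671 in TPM. LAMB2 lengths were 36.7% (median) of the longest coding transcript of 5674 bases. ITGB5 stood at 37.6% and ITGAE at 18.2%, with 693 to 785 bases of 3858, so that their TPM is high for their counts. LAMA5 lengths were 8514, 3057 and 2730 bases in 44a, 4.72 and 4.72-44a and 1756, 3347 and 3601 bases in 3.11, 44b and 3.11-44b. LAMA2 had 6996, 3454 and 5673 bases against 9640, 9640 and 2633 bases. Both are genes of low level, and their values per length and per count part: LAMA5 was 2.83 and 2.49 TPM in the WT/WT clones against 2.81 and 4.59 TPM, a log2(TPM + 1) difference of 0.34, where the count gave -0.83. The joined library 3.11-44b was 1.67 TPM for LAMA2, beside 0.35 and 0.26 TPM in its 2 clones, and 2.73 CPM beside 2.12 and 1.63 CPM.

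**Figure D4:**
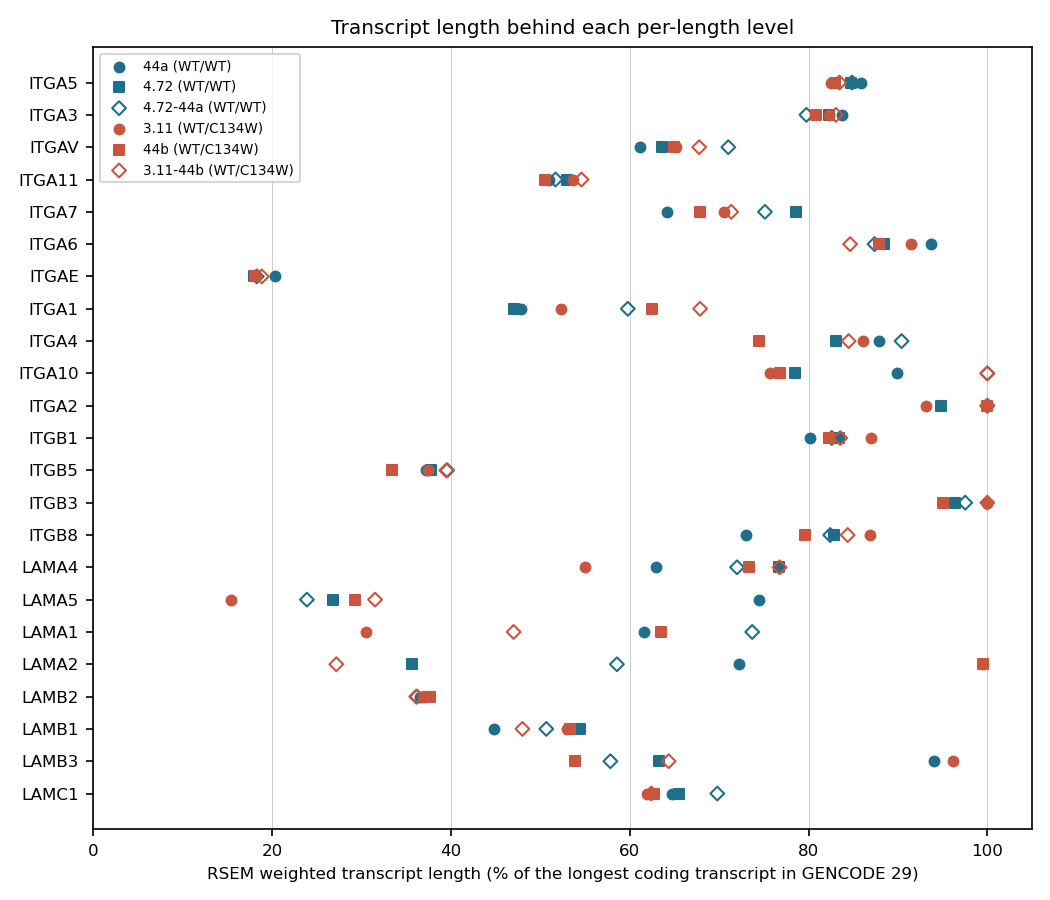
Weighted transcript length of each chain in each library as a percent of its longest coding transcript in GENCODE 29, points without counts left out. ITGA5 and LAMB2 are tight over all 6 libraries, whereas LAMA5 runs from 1756 to 8514 bases of 11426 and LAMA2 from 2633 to 9640 bases.

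The joined libraries gave a further view of each chain. The CPM value of 4.72-44a lay between those of 44a and 4.72 for 18 of the 26 tested chains. That of 3.11-44b lay between those of 3.11 and 44b for 13 of 26. The share over all genes was not taken, so these counts do not show whether the libraries are mixes. ITGAV lay just above its clones in both by CPM, at 546 CPM beside 498 and 520 and at 231 CPM beside 218 and 228. By TPM it lay just below them in both, at 155.53 TPM beside 166.22 and 161.23 and at 75.81 TPM beside 77.06 and 77.11. With these libraries in the test the fold changes were -1.20 for ITGAV (adjusted p = 0.00192 in edgeR), -0.70 for LAMB2 (0.0140), -2.21 for LAMA2 (0.0136) and 1.09 for ITGA2 (0.0462). DESeq2 on the 4 clones gave adjusted p-values of 2.12e-09 for ITGAV, 9.76e-05 for LAMA2, 0.0059 for LAMB2 and 0.0232 for ITGA5. ITGAV and LAMA2 were called in each of the 3 settings that called any chain. All 3 settings use the same 4 clones, so they are not separate evidence, and 1 adds the joined libraries, which may repeat those clones. Another, edgeR without the low-count filter, also called LAMA1, whose WT/WT clones had 32.8 CPM and no count. Its SE there was 0.41, against 2.72 in the main test.

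**Figure D5:**
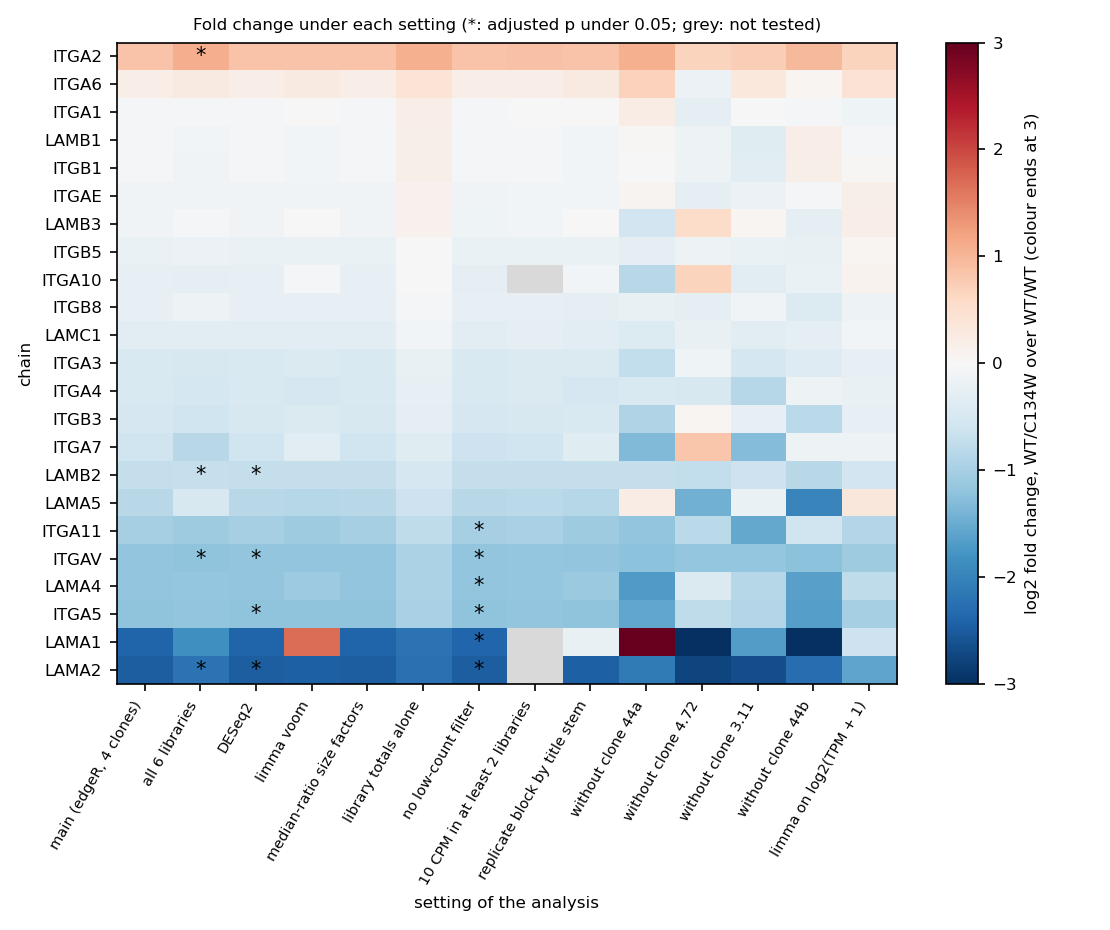
Log2 fold change (colour, blue where WT/C134W is lower) of each chain under the main test and 13 other settings, with an asterisk where the adjusted p was under 0.05 and grey where a chain was not tested. ITGAV, LAMA2, LAMB2, ITGA5, ITGA11, LAMA4, ITGA3, ITGA4, ITGB8 and LAMC1 keep a negative sign in every setting that gave a value. ITGA2 keeps a positive sign. The other chains drawn change sign in at least 1 setting: LAMA1, LAMA5, LAMB1, LAMB3, ITGA1, ITGA6, ITGA7, ITGA10, ITGAE, ITGB1, ITGB3 and ITGB5.

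The proteins that integrins and laminins work with were taken as 3 lists, also chosen with earlier results of these data known. From each list the 3 genes with the smallest p in the main test are named. Their lack of overlap follows in large part from that choice. Over all genes tested, 14% lay lower in WT/C134W without overlap in the 6 libraries. The integrin adhesome, the proteins that join integrin tails to actin and to kinases, had 47 of 49 genes tested, with 16 lower and 0 higher at an unadjusted p under 0.05 (background 4.7% and 2.88%) and a median log2 fold change of -0.35. TLN1, the talin that activates integrins from inside, had 1685, 1593 and 1483 CPM in 44a, 4.72 and 4.72-44a against 844, 936 and 876 CPM in 3.11, 44b and 3.11-44b, without overlap (-0.88 ± 0.18, adjusted p = 0.556 in edgeR). NEDD9, a docking protein of focal adhesions, had 73.1, 66.5 and 66.1 against 22.6, 32.9 and 30.2 CPM. SRC, the kinase, had 52.8, 59.7 and 52.7 against 23.1, 35.7 and 31.7 CPM. Neither overlapped.

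Basement membrane partners of laminins had 20 of 28 genes tested, 8 lower and 0 higher at an unadjusted p under 0.05 (background 4.7% and 2.88%), and a median of -0.96. COL4A1, the collagen of the basement membrane, had 2060, 3402 and 2927 against 866, 1364 and 1129 CPM (-1.29 ± 0.34). NID2, a nidogen that links laminin to collagen IV, had 90.4, 43.0 and 50.4 against 13.8, 17.9 and 14.7 CPM, and HSPG2, the proteoglycan perlecan, 1441, 1970 and 1656 against 1009, 756 and 729 CPM. No WT/C134W library reached the WT/WT range for these 3 genes, which were picked by their small p.

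Integrin ligands other than laminins had 35 of 46 genes tested, 15 lower and 0 higher at an unadjusted p under 0.05 (background 4.7% and 2.88%), and a median of -0.82. COL1A1, COL1A2, COL3A1 and POSTN are in this list and in the stromal list. CCN3, a matricellular ligand, had 17.3, 17.0 and 15.5 against 2.60, 1.70 and 4.84 CPM (-2.99 ± 0.34, adjusted p = 0.439 in edgeR). TGFB1, whose latent form alpha V integrins bind, had 389, 352 and 336 against 166, 197 and 178 CPM. COL5A1, a fibrillar collagen chain, had 1964, 1475 and 1500 against 634, 742 and 686 CPM. These 3, picked by their small p, did not overlap either. In the 3 lists 0 genes passed at an adjusted p of 0.05, and the stromal marker difference given above stands beside them also.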

How the data were processed

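Polyadenylated RNA of 6 KGN libraries had been read with a stranded kit. Per the file headers, the authors' RSEM output holds, per gene, the expected count (an estimated count that need not be whole), TPM, FPKM and the weighted transcript length in bases as other values. RSEM 1.3.1 and STAR 2.7.6a, as well as DESeq2 1.26.0, R 3.6.3 and Picard 2.8.1, are named in the submitters' processing notes without settings. The notes name a mouse build, GRCm38, whereas 58216 of the 58336 IDs are in human GENCODE 29, which was used for names and GRCh38 coordinates.

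Expected counts were rounded to whole numbers and tested with edgeR 4.0.16 (R 4.3.3, filterByExpr, TMM, glmQLFit robust, glmQLFTest) over all genes, with Benjamini-Hochberg adjustment at 0.05, on the 4 libraries whose title names 1 clone. Each SE was derived from the fitted log2 change and its F statistic (absolute change over root F). CPM are TMM-scaled over 6 libraries. TPM served for levels between genes, and FPKM as an alternative for which chains reach 2. With 2 clones against 2, an exact test of 1 gene cannot go below p = 0.333. Scripts were tested on simulated data.

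Alternatives were all 6 libraries, DESeq2 1.42.0, limma 3.58.1 voom, other scalings and filters, a replicate block, each clone left out and, chosen after seeing the data, limma on log2(TPM + 1). Chains at a mean of 2 TPM over the 4 clones get values per library. ITGA2 and LAMA2 fall outside that rule and were named after their values were seen, as were remarks on ITGB2, ITGB4 and LAMA3. From each partner list the 3 genes with the smallest p are named. The members and lists were chosen with earlier results of these data known. Promoter windows came from the RefSeq table (GRCh38.p14). Protein sequences were not used here.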

Additional observations from a re-analysis of the deposited data

How the results depend on the processing

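Over all genes the calls at an adjusted p under 0.05 moved from 0 to 511 with all 6 libraries, 273 with DESeq2 and 664 without the low-count filter, and 4, 4 and 6 of the chains were among them. The 6 were ITGAV, ITGA5, ITGA11, LAMA1, LAMA2 and LAMA4. The labels do not pair clones, and with a replicate block by shared title stem (44a with 44b, 4.72 with 3.11) edgeR called 5 genes and 0 chains. Limma voom, library totals alone, median-ratio factors, the filter at 10 CPM in 2 libraries, log2(TPM + 1) and each clone left out called 0 chains. Of 329 values for named chains under alternatives, 284 kept sign and side of the threshold, 14 newly passed it and 31 changed sign. Chains lower in WT/C134W numbered 15 on log2(TPM + 1), where the median of all genes moved to 0.15.

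Signs changed with library totals alone for ITGA1 (0.19), ITGAE (0.12), ITGB1 (0.17), ITGB5 (0.020), LAMB1 (0.17) and LAMB3 (0.13). On log2(TPM + 1) they changed for ITGA10 (0.11), ITGAE (0.18), ITGB1 (0.035), ITGB5 (0.053), LAMA5 (0.34) and LAMB3 (0.20), with voom for LAMA1 (1.68) and LAMB3 (0.0067), and with all 6 libraries for ITGB4 (0.20). With 1 clone left out, the lone clone being taken to vary like the other pair, ranges crossed 0 for ITGA1 (-0.26 to 0.23), ITGA6 (-0.18 to 0.70), ITGA7 (-1.34 to 0.84), ITGA10 (-0.82 to 0.66), ITGAE (-0.28 to 0.087), ITGB1 (-0.34 to 0.18), ITGB3 (-0.90 to 0.049), LAMA1 (-3.89 to 10.05), LAMA3 (-2.50 to 1.58), LAMA5 (-1.97 to 0.23), LAMB1 (-0.37 to 0.21) and LAMB3 (-0.57 to 0.54). The scalings shift all genes; for the other changes of sign the cause was not tested. By expected counts in place of TPM, ITGB1 made up 76.6% of integrin beta chains (62.0% by TPM) and LAMB2 47.1% of laminin beta chains (55.9%). By FPKM 19 chains reached a mean of 2, by TPM 21. The 10 CPM filter left no value for 6 named chains (ITGA10, ITGB2, ITGB4, LAMA1, LAMA2 and LAMA3), and log2(TPM + 1) none for ITGB2, ITGB4 and LAMA3. Counts of trimers without each clone were added after seeing the data.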
